A study of Mus musculus with 6 samples.

Results

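The 10 genes of fatty acid uptake and binding were taken by symbol from a table of 19078 genes, and 8 of the 10 named genes were found there. These were the fatty acid binding protein genes *Fabp4* and *Fabp5*, the scavenger receptor gene *Cd36*, the fatty acid transport protein (FATP) genes *Slc27a1*, *Slc27a3* and *Slc27a4*, the lipase regulator gene *Angptl4* and the apolipoprotein gene *Apoe*. *Fabp3* and *Lpl* were not analysed here. RNAseq was performed on immortalized mouse fibroblasts (MF) in 2 groups of 3 libraries, *Ms4a15* OE and control. Cells of both groups descend from conditional *Gpx4* knockout embryonic fibroblasts that express Cre-ERt2. The paper's methods describe these fibroblasts as made with a CRISPR activation system. *Ms4a15* OE cells are a pooled population with a guide that directs this system to the *Ms4a15* gene. Control cells received an empty lentivirus and carry the genotype label wild type. No treatment is given in the labels of either group. Each value below is the authors' mean of normalized counts over all 6 libraries, that is, reads per gene divided by a size factor that corrects each library for its depth. The mean combines both groups, so levels in *Ms4a15* OE and in control cannot be told apart, and the difference between the groups was not analysed here.

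Fatty acids reach a cell either free, bound to albumin, or as triglycerides that lipoprotein lipase cleaves outside the cell. CD36 and the FATP proteins promote their entry, and FATP proteins also activate them to acyl-CoA. Inside the cell, small fatty acid binding proteins carry them through the cytosol. ANGPTL4 inhibits lipoprotein lipase, and APOE is a ligand by which lipoprotein particles bind to receptors. CD36, FABP4 and ANGPTL4 are well known in adipocytes, where PPARγ drives their genes, and FABP5 is found in many cell types including epidermis, macrophages and fibroblasts.

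Upstream sequences of 3 members are shown to set *Slc27a4*, the highest FATP gene, and *Slc27a3* beside *Cd36*, the lowest member. Each is the 250 bases before the RefSeq start on GRCm38.p6, written from 5′ to 3′ on the strand of the gene, with CpG dinucleotides in capitals. The window of *Slc27a4* lies on the forward strand at chr2:29802384-29802633, that of *Slc27a3* on the reverse strand at chr3:90389939-90390188 and that of *Cd36* on the reverse strand at chr5:17835897-17836146. The *Cd36* window belongs to an internal start and lies 52.7 kb inside the gene as GENCODE annotates it.
Slc27a4: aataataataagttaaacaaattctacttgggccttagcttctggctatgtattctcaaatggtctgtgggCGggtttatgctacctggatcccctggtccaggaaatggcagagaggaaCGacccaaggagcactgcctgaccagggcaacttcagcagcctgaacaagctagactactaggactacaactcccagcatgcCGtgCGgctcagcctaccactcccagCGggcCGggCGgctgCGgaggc
Slc27a3: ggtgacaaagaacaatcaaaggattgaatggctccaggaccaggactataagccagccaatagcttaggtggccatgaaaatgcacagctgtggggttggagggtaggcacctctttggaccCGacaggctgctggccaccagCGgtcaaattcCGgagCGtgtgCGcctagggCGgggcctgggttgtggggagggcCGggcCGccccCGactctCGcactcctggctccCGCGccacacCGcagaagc
Cd36: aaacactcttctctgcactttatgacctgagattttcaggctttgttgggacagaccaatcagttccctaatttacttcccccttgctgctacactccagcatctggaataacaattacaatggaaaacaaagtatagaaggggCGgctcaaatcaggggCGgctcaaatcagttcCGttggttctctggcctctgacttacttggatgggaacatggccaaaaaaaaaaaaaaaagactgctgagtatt
The window of *Slc27a3* holds 13 CpG dinucleotides, that of *Slc27a4* 8 and that of *Cd36* 3, against a median of 6 over 32851 RefSeq promoter windows of the same length. GC content was 62.4% for *Slc27a3*, 54.4% for *Slc27a4* and 43.2% for *Cd36*, with a median of 52.4% over all windows. Among the 3 windows shown, the order of CpG content was thus not that of the levels given below, where *Slc27a4* stood above *Slc27a3*. Windows at the several RefSeq starts of *Slc27a1* held 8, 12 and 10 CpG dinucleotides, and those of *Apoe* 8, 9 and 10. The half-site AGGTCA, which PPAR and other nuclear receptors recognise, was searched on both strands and occurs in 14.0% of all windows. Of the 3 windows shown, that of *Cd36* alone held AGGTCA. The GC box GGGCGG, also searched on both strands, was found in all 3 windows shown and in 32.7% of all windows. A match of letters is a description of the window and shows no binding.

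*Fabp5* was the member with the highest level. Its mean was 7063 normalized counts, above that of 93.4% of all listed genes, with a 95% interval for counting error from 6996 to 7131. The gene lies on chromosome 3 of GRCm38 from 10012548 to 10016607 on the forward strand. Per kilobase of exon, the scale on which different genes are compared here, its level was 1980 normalized counts. The intervals for single genes cover counting error only and take no account of variation between libraries or groups.

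*Fabp4*, the binding protein gene of adipocytes, lies in the same cluster of *Fabp* genes as *Fabp5*, on the reverse strand from 10204088 to 10208576. Its mean was 8.38 normalized counts, with a counting interval from 6.23 to 11.0, and its level per kilobase of exon was 1.87. On that scale *Fabp5* was 1060-fold above *Fabp4*, and per kilobase of coding length 824-fold. The start of *Fabp4* lies 196 kb from that of *Fabp5*. Between them lie *Pmp2*, which is not among the listed genes, and *Fabp9*. The mean of *Fabp9* was 0.163 normalized counts, which equals 1 read in 1 of the 6 libraries. *Fabp12*, on the far side of *Fabp4*, had a mean of 0.178 and likewise 1 read in a single library. Among the 4 listed genes of the cluster, *Fabp5* was thus the only one with a mean above 10 normalized counts.

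Whole reads in single libraries could be worked out for members with low means, because a mean is the sum of whole reads, each worth a fixed step in its library. The libraries are named here by their size factor, 1.14, 1.11, 1.02, 0.946, 0.938 and 0.887, since the table does not pair them with samples or groups. In that order, *Fabp4* had 6, 2, 13, 4, 13 and 11 reads, 49 in all. Reads of *Fabp4* were thus present in every library, with a median of 8.5. *Fabp2* and *Fabp7*, the intestinal and brain forms, had 4 reads each in all libraries together, in 3 libraries each.

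Of 12 further genes for fatty acid and retinoid binding proteins, 6 were listed and 1 of them was above a floor of 3 counts per library. Below this floor a gene was not taken as detectable at this depth, and 75.8% of all 19078 genes were above it. The binding protein gene above the floor was *Crabp2*, which binds retinoic acid, with a mean of 7.70 normalized counts. Its reads were 8, 8, 3, 14, 7 and 6 in the same order of libraries. The remaining 5 had means between 0.163, for *Fabp9*, and 0.717, for *Rbp7*, which binds retinol.

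**Figure D1:**
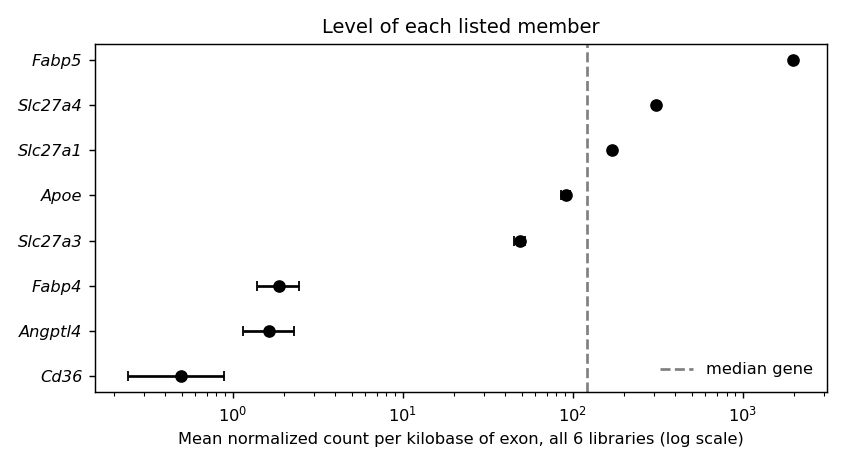
Level of the 8 listed members in mean normalized counts per kilobase of exon over all 6 libraries, on a log axis. Points are the authors' means, bars the 95% interval for counting error, and the dashed line the median gene at 121; *Fabp5*, *Slc27a4* and *Slc27a1* lie to its right, and the intervals of *Fabp4* and *Angptl4* overlap.

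The FATP genes were the transporters with the highest levels among the members. *Slc27a4*, which encodes FATP4, is located on chromosome 2 from 29802634 to 29817522 and had a mean of 1363 normalized counts, with a counting interval from 1333 to 1393. *Slc27a1*, which encodes FATP1, is on chromosome 8 from 71568882 to 71587302 and had a mean of 995, with an interval from 970 to 1020. *Slc27a3*, which encodes FATP3, lies on the reverse strand of chromosome 3 from 90385239 to 90389938, and its mean was 125, with an interval from 116 to 134. Per kilobase of exon, the levels were 309 for *Slc27a4*, 170 for *Slc27a1* and 48.6 for *Slc27a3*. *Slc27a4* was thus 1.81-fold above *Slc27a1* and 6.36-fold above *Slc27a3* on that scale. Per kilobase of coding length, *Slc27a4* was 11.3-fold above *Slc27a3*. None of the counting intervals of the 3 genes overlapped.

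The other 3 FATP genes were all under the floor of 3 counts per library. *Slc27a2*, known from liver and kidney, had 2 reads in all libraries together, and *Slc27a5*, the bile acid-CoA ligase gene of liver, had 3. *Slc27a6*, known from heart, had 8 reads, with 2, 2, 1, 3, 0 and 0 in the order of falling size factor. Of the 6 FATP genes, *Slc27a1*, *Slc27a3* and *Slc27a4* were therefore those detectable at this depth.

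*Cd36* had the lowest level of the 8 members. It lies on the reverse strand of chromosome 5 from 17781690 to 17888801. Its mean was 1.77 normalized counts, under the floor, and was above that of 20.5% of the listed genes. The reads per library, in order of falling size factor, were 3, 3, 1, 3, 0 and 1, or 11 in all. One library was thus without any read and none had more than 3. The counting interval of the mean ran from 0.872 to 3.20. Per kilobase of exon, *Fabp5* was 4013-fold above *Cd36*, and per kilobase of coding length 13941-fold.

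**Figure D2:**
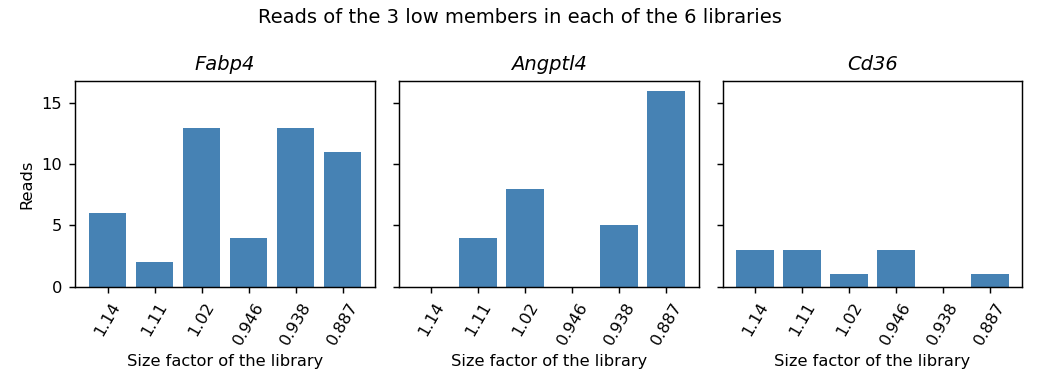
Reads of *Fabp4*, *Angptl4* and *Cd36* in each of the 6 libraries, which are ordered by falling size factor from 1.14 to 0.887 and are not assigned to groups. Each bar is 1 library; *Angptl4* ranges from 0 to 16 reads, *Fabp4* from 2 to 13 and *Cd36* from 0 to 3.

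*Angptl4*, the gene of the lipoprotein lipase inhibitor, lies on the reverse strand of chromosome 17 from 33773750 to 33781830. Its mean of 5.80 normalized counts had a counting interval from 4.04 to 8.08. The libraries held 0, 4, 8, 0, 5 and 16 reads in the same order, 33 in all. No read was found in the libraries with size factors of 1.14 and 0.946, and the highest value was in the library with the smallest size factor. Per kilobase of exon its level was 1.64, and its counting interval overlapped that of *Fabp4*. The annotated exons of *Fabp4* cover its whole span of 4489 bases. Per kilobase of coding length, *Fabp4* was at 21.2, with a counting interval from 15.7 to 27.9, and *Angptl4* at 4.72, with one from 3.28 to 6.57, so on that scale the intervals did not overlap.

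A list of genes around lipoprotein lipase held genes for its control and also *Lipg*, *Lipc* and *Pltp*. Of 14 named, 9 were listed and 8 of these were above 3 counts per library, beside 75.8% of all 19078 genes. The highest mean was that of *Lmf2*, a paralog of the lipase maturation factor gene *Lmf1*, with 5838 normalized counts. It was followed by *Sel1l* with 4923, which encodes an endoplasmic reticulum protein needed for lipase to leave that compartment, and by *Furin* with 3801, a protease that cleaves lipases and angiopoietin-like proteins. *Lmf1* itself had a mean of 530. Among lipase genes of the same family, endothelial lipase *Lipg* had a mean of 301 and hepatic lipase *Lipc* one of 7.69. *Pcsk6*, another protease of the furin type, had 3 reads in all libraries together.

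*Apoe* lies on the reverse strand of chromosome 7 from 19696109 to 19699188. Its mean was 194 normalized counts, with a counting interval from 183 to 205, above that of 48.8% of all listed genes. Its level per kilobase of exon, 90.6, was between those of *Slc27a1* and *Slc27a3*. *Apoc1*, the neighbouring apolipoprotein gene in the same cluster, had 1 read in a single library. Apolipoproteins of plasma particles had means of 63.9 for *Apob*, 23.5 for *Apoa2* and 0.690 for *Apoa1*, or 4.58, 43.7 and 0.558 per kilobase of exon.

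Of the receptor genes, those with the highest means are given here. *Lrp1*, a large receptor that binds APOE, had a mean of 20414 normalized counts, or 1152 per kilobase of exon. *Scarb1*, the receptor for high-density lipoprotein, had a mean of 10155, or 1195 per kilobase. *Lrp8*, a further receptor of APOE, had a mean of 3912, or 372 per kilobase. *Apoe* was at 90.6 on that scale. Of 18 apolipoprotein and receptor genes, 17 were listed, 11 of them above the floor. The macrophage scavenger receptor gene *Msr1* had 1 read, and *Abcg1*, a sterol exporter gene, had 2. *Abca1*, which exports cholesterol to apolipoproteins, had 11 reads in 5 libraries.

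**Figure D3:**
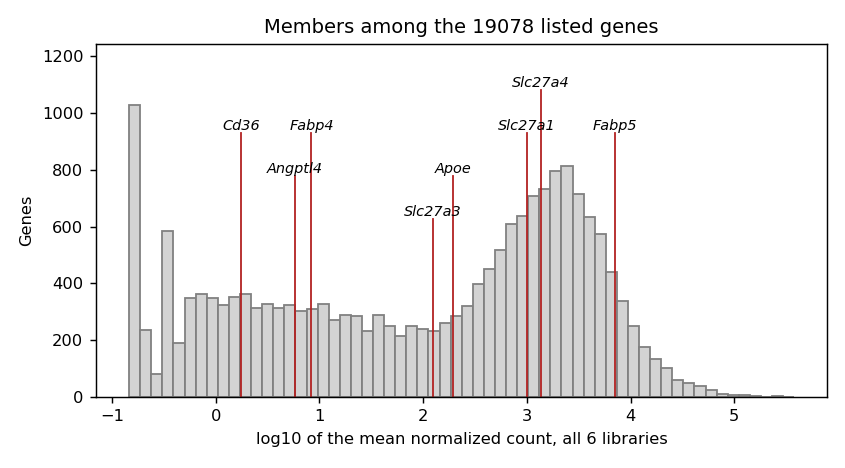
Number of genes by log10 of the mean normalized count over all 6 libraries, for the 19078 listed genes. Vertical lines mark the 8 members; *Fabp5* lies in the upper tail, *Slc27a4* and *Slc27a1* above the median gene of 237 normalized counts, and *Fabp4*, *Angptl4* and *Cd36* among the low genes.

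As a group, 7 of the 8 listed members were above the floor, with a median mean of 159 normalized counts. Among all 19078 genes, 75.8% were above the floor and the median was 237. Of the members, *Fabp5*, *Slc27a4* and *Slc27a1* were above the median gene, and the other 5 below it. On the scale per kilobase of exon, the same 3 genes were above the median of the 14655 genes with an exon length. In order of that scale, the members ran *Fabp5*, *Slc27a4*, *Slc27a1*, *Apoe*, *Slc27a3*, *Fabp4*, *Angptl4* and *Cd36*. Besides *Fabp4* and *Angptl4*, no neighbours in this order had overlapping counting intervals. These intervals do not cover variation between libraries. In the libraries with size factors of 1.14 and 0.946, *Cd36* had 3 reads and *Angptl4* 0, against the order of their means. No other gene of the GENCODE M21 annotation overlaps any of the 8.

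Acyl-CoA synthetases activate fatty acids after entry. Of 7 acyl-CoA synthetase genes, 5 had means above 1000 normalized counts, while the mean of *Slc27a1*, 995, exceeded that of 64.9% of listed genes. The highest means were those of *Acsl5* at 10256, *Acsl3* at 2943 and *Acsl4* at 2298, the latter known for activating arachidonic acid. *Acsl6* and *Acsbg2*, found in brain and testis, had 2 and 8 reads in all libraries. Per kilobase of exon, the level was 2109 for *Acsl5*, beside 1980 for *Fabp5*, and 676 and 425 for *Acsl3* and *Acsl4*. The annotated exons of *Fabp5* cover 3567 of its 4060 bases, whereas its coding length is 405 bases. Per kilobase of coding length *Fabp5* was at 17440, a scale on which *Acsl5* was not compared here.

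Other proteins linked to fatty acid entry and carriage were all above the floor. Of these 6 genes, *Cavin1*, a coat protein gene of caveolae listed under its older symbol *Ptrf*, had the highest mean with 15635 normalized counts. *Got2*, whose product was also described as a fatty acid binding protein of the plasma membrane, was at 15396, and *Cav1* at 11554. *Dbi*, which encodes the acyl-CoA binding protein, had a mean of 4729. *Mfsd2a*, a transporter of lysolipids, had the lowest mean with 736.

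Among the nuclear receptors that bind fatty acids and oxysterols and their RXR partners, 6 of 8 named genes were listed, all above the floor. *Rxra* had a mean of 2518 normalized counts, *Rxrb* one of 2475 and *Ppard* one of 2324. The means of *Pparg*, at 161, and of the liver X receptor gene *Nr1h3*, at 12.9, were the lowest. Per kilobase of exon, the level was 309 for *Ppard* and 54.4 for *Pparg*.

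**Figure D4:**
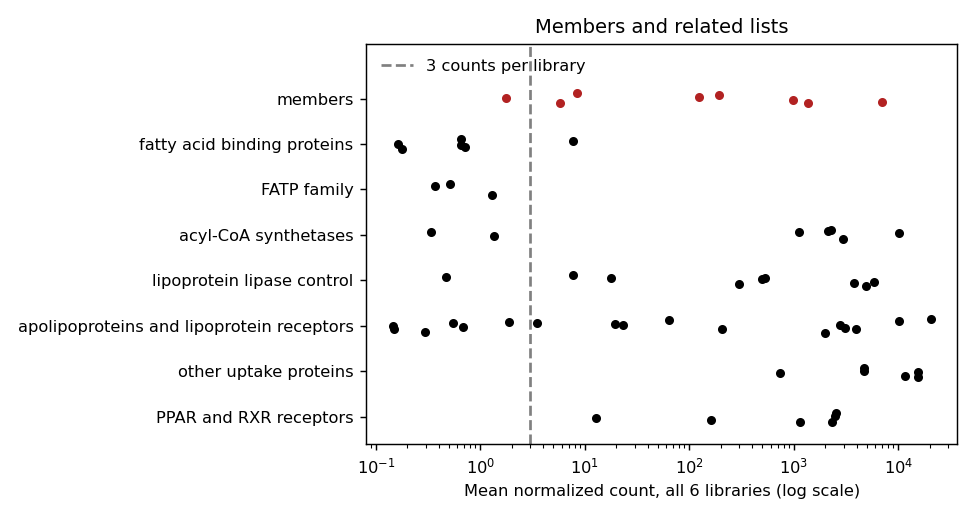
Mean normalized count over all 6 libraries, on a log axis, for the 8 listed members (red) and the listed genes of 7 related lists (black), with 1 point a gene. The dashed line is the floor of 3 counts per library; all genes of the list of other uptake proteins and of the PPAR and RXR list lie to its right, and all 3 genes of the FATP list to its left.

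The cell type on the labels was compared with marker genes. Of 12 fibroblast genes, 11 were above the floor, from 12.1 normalized counts for *Dcn* to 135155 for *Col1a2*, while *Lum* was at 0.675. Of 9 adipocyte genes, 7 were listed and 3 of those were above the floor, *Lipe* at 89.1, *Cidec* at 40.5 and *Plin1* at 10.5. The other 4 listed adipocyte genes, *Cidea*, *Adipoq*, *Ucp1* and *Cfd*, were under it, at 1.01, 0.364, 0.314 and 0.163. Of 8 myeloid genes, 6 were listed and 5 of those were above the floor, led by *Lyz2* at 533.5 and *Cd68* at 164. *Csf1r* was at 13.2, *Ptprc* at 11.1 and *Itgam* at 5.79, while *Aif1* was under the floor at 0.163. Of 7 endothelial genes, 3 were above the floor, *Cdh5* at 107, *Pecam1* at 15.9 and *Vwf* at 15.1, and of 7 epithelial genes only *Krt8*, at 10.9, was above the floor. Of 8 muscle genes, 3 were listed, *Tnnt2* at 5787, *Des* at 119 and *Myh3* at 7.97. The part of other cells in the levels of *Fabp4*, *Cd36* and *Apoe* was not tested, and in bulk RNA few cells with a high level and many with a low level cannot be told apart. *Ms4a15* itself had a mean of 638 normalized counts over both groups, which does not check the group labels.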

How the data were processed

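RNAseq of poly(A)-selected RNA was performed on 3 *Ms4a15* OE and 3 control libraries. The paper's methods name STAR, the mouse assembly mm10, the UCSC knownGene annotation and HTSeq-count, whereas the submitters' processing notes also name TopHat and Cufflinks. Per the file headers, the authors deposited 1 signal value per gene, DESeq2's mean of size-factor-normalized counts, taken across both groups. Its other columns hold the authors' own comparison of the groups and were not used. As single libraries could not be paired with samples, the planned test of *Ms4a15* OE against control was not run.

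Members and lists were chosen with earlier results of these data known. The genes named are the 10 members and the 3 highest means of each list, with further list genes and markers chosen after their values were seen. Counts over the lists leave out 1 gene, which is not reported here. Intervals are exact Poisson 95% intervals for 6 times the mean, treated as reads, and cover counting error only. Size factors came from the 6 lowest means, each that of 1 read in 1 library, refined on 400 genes. Reads per library are the only whole numbers that gave a mean within 6e-10 normalized counts, about the rounding of the file's 9 decimals. This step was tested on simulated data, in which all 40 of 40 genes with means from 6 to 9 were solved correctly. Depth is known as the sum of all means, 40991755 normalized counts per library. Exon lengths and positions came from GENCODE M21 (GRCm38), found by symbol for 14655 of 19078 genes (76.8%) and for all 8 members, and promoters from RefSeq (GRCm38.p6), found for 6 of the 10. Both are the assembly mm10. Alternatives were floors of 1 and 10 counts, a background of genes with a mean of at least 10, coding length and no length scale. Python 3.11.15, numpy 2.4.6, pandas 2.3.3, scipy 1.17.1 and matplotlib 3.10.9 were used.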

Additional observations from a re-analysis of the deposited data

How the results depend on the processing

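The number of members above the floor was 7 with 3 counts per library, 5 with 10 and 8 with 1, and that of other listed genes of the lists 37, 34 and 40. The members above the median gene numbered 3 over all genes and per kilobase of exon or of coding length, the last an alternative chosen after seeing the data, and 2 when the background was limited to genes with means of 10 or more. All 28 pairs of members stood in the same order per kilobase of exon, per kilobase of coding length and without a length scale. The planned test between groups was not run, because counts of single libraries paired with samples were not used here. Other tools, filters and leaving out replicates were not run either. At 100 times the tolerance for whole reads, *Fabp4* had 5 solutions, *Crabp2* 7 and *Lipc* 3, whereas *Angptl4*, *Cd36* and *Slc27a6* still had 1. No paired analysis was possible because the table's mean does not separate the replicates.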

Other observations

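The 6 libraries are not assigned to groups. In order of falling size factor, *Fabp4* had 6, 2, 13, 4, 13 and 11 reads. These values ranged from 2 to 13 reads, and whether they go with depth or with group was not tested. They rest on the tight tolerance for whole reads, since 100 times that tolerance gave 5 solutions. The *Angptl4* reads, 0, 4, 8, 0, 5 and 16, and the *Cd36* reads, 3, 3, 1, 3, 0 and 1, stand in the same order of libraries. Which of the libraries are *Ms4a15* OE was not determined, and no test was made.

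*Lipc* had 17 reads in the library with the size factor of 0.938 and between 4 and 7 in every other library, and 100 times the tolerance gave 3 solutions.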
